A study of Drosophila melanogaster with 12 samples.

Results

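Translation factors and aminoacyl-tRNA synthetases were followed in fly heads during withdrawal from the convulsant pentylenetetrazol (PTZ). The genes were chosen by symbol alone: a current symbol starting with eIF, eEF, eRF or AIMP, the symbol Thor or pAbp, or an amino acid's short name followed by RS (cytosolic) or RS-m (mitochondrial). Of 6646 named genes with a value on at least 1 array, 48 met the rule. They comprise 27 initiation factors, 5 elongation or termination factors, 6 cytosolic synthetases, 8 mitochondrial synthetases and 2 proteins of the multi-synthetase complex (AIMP1 and AIMP2). The current annotation holds 94 symbols that match, and the other 46, among them Thor, eIF4E1, eIF2alpha, eEF1alpha1, eEF2, eRF1, GluProRS and MetRS, were not analysed here.

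Protein synthesis starts when initiation factors bring the small ribosomal subunit, charged with the initiator tRNA by eIF2, to the capped end of an mRNA held by the eIF4 factors, with eIF3 as the scaffold between them. Elongation factors then deliver each aminoacyl-tRNA and move the ribosome along, release factors end the chain, and the synthetases load every tRNA with its amino acid, one set of enzymes serving the cytosol and another the mitochondrion. In neurons this machinery is under the control of growth and stress kinases and supplies the new proteins that lasting changes at synapses need.

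The flies were unmated Oregon-R wild-type males, 3 to 4 days old at the start per the series text (4 to 5 days per the labels), kept 30 to a vial. Treated flies had food with 8 mg/ml PTZ for 7 days and then normal food, and untreated flies had normal food throughout. Heads were collected on day 8, day 10 or day 14, after 1, 3 or 7 days of withdrawal, with 4 spotted 2-colour cDNA arrays a day. Every array carried RNA of a pool of PTZ-withdrawn heads in 1 channel and of untreated heads in the other, so each value is a ratio within an array, and the untreated spread is part of it.

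The values were deposited log2 ratios per spot, with each array's median set to 0 and the spots of a gene averaged, so every value below is a log2 ratio relative to the median spot of its array and never a level. A value of 1 is a doubling. The direction, PTZ-withdrawn over untreated, was taken from the channel labels, which give Cy5 to the treated heads on all 12 arrays, whereas the series text says that 2 of 4 arrays were dye-swapped and the labelling text of day 10 replicates 1 to 3 names Cy3. The direction is therefore not settled. Over all genes the lowest correlation between arrays of the same day was -0.071. Correlations near 0, as between the 2 pairs of day 10 arrays described below, cannot tell whether an array was swapped. Values covered 15057 to 18354 spots on the day 10 arrays, 4310 to 19807 at day 14 and 2316 to 7454 at day 8, and the deposited medians, before they were set to 0, were -0.309 to -0.198, 0.558 to 1.588 and 0.16 to 0.194. The 4 day 8 columns were identical at every spot that any pair of them shared, so they were counted as 1 sample with no spread of its own.

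A ratio gives no level, so the heads could be checked only by which marker genes had a value: 3 of 10 listed neuron genes (nSyb, Rab3 and Gad1), 6 of 12 of photoreceptors, 4 of 6 of glia, 8 of 9 of fat body, 4 of 10 of muscle, 5 of 8 of testis, 3 of 6 of the female germ line and 3 of 5 of blood cells. In a pool of whole heads, fewer cells of a type and less RNA per cell cannot be told apart.

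No translation factor or synthetase passed the test at any day, and as a group their medians stayed near 0. At day 10, 39 members were measured on at least 3 of 4 arrays and tested, 22 with a mean above 0 (53.1% of all genes were) and 17 below, and their median was 0.017 against 0.013 for the 4661 genes tested. No member passed an adjusted p of 0.05 (limma, Benjamini-Hochberg over all genes tested), and neither did any other gene, a background of 0%. An unadjusted p under 0.05 was reached by 5 members, 12.8%, against 13.2% of all genes, that is 616. These were 2 members above 0 and 3 below, where the background was 7.55% and 5.66%. At day 14, 31 members were tested, 22 above 0 and 9 below, with a median of 0.039 against 0.009 for 3010 genes. None passed the adjusted threshold (background 0%), and 2 had an unadjusted p under 0.05, 6.45% against 6.64% of all genes, that is 200. Both were above 0 (eIF4E5 and eIF6), where the background was 4.25%, and 2.39% for values below 0. For the difference of the days, day 14 minus day 10, none of 27 members passed in limma (background 0% of 2385 genes), and 3 had an unadjusted p under 0.05, 11.1% against 7.21%, that is 172 genes. Of these 3, eIF4B and eIF4G1 were higher at day 14 and eIF3d2 lower, beside a background of 3.65% higher and 3.56% lower. The difference was above 0 for 16 of the 27, against 48.6% of all genes, with a median of 0.043 against -0.0072. The share of members above 0 at day 14 was 71.0%, beside 52.1% of all genes, and with the ratio signs of replicates 3 and 4 turned, a possible dye swap, it was 45.2%, beside 50.9%. With day 14 replicates 1 to 4 left out in turn, the share was 71.0%, 59.5%, 59.4% and 51.2%, of 31, 42, 32 and 41 members.

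**Figure D1:**
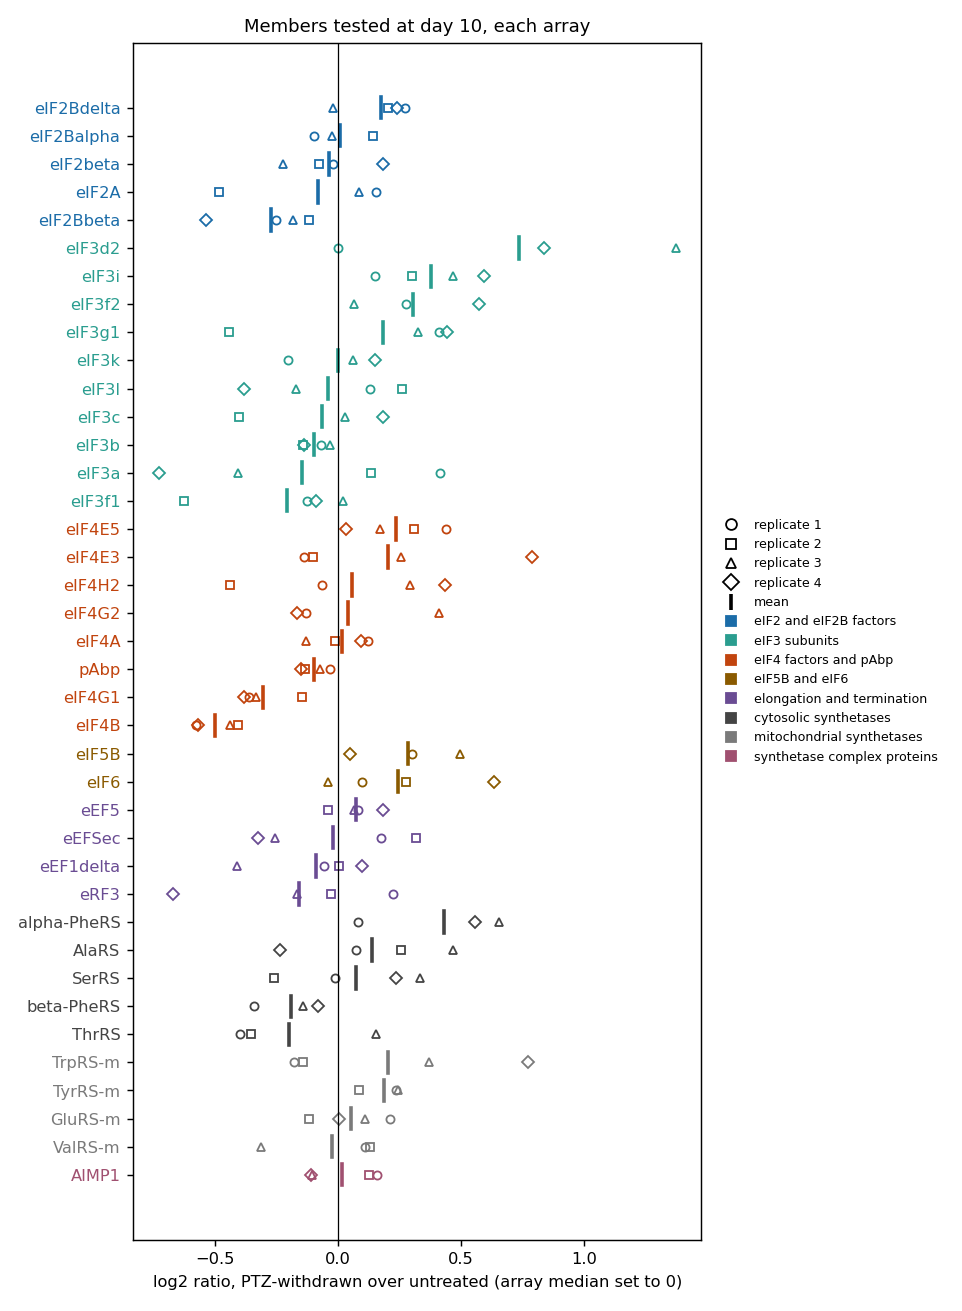
Log2 ratios of the 39 members tested at day 10 (x axis, array median at 0), 1 row per member, sorted by role and mean; symbols are the 4 replicates, the thick bar is their mean and the colour is the role. Only eIF4B has all its points below -0.4, and eIF3d2 has the widest spread, from 0.0005 to 1.37.

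Among the eIF4 factors, which unwind and circularise the mRNA, eIF4B and eIF4G1 had the lowest means of the members tested at day 10. eIF4B, an RNA-binding cofactor of the helicase eIF4A, measured -0.58, -0.41, -0.44 and -0.57 on replicates 1 to 4. All 4 arrays were low and close together, and both of its spots were below 0 on each of them. The mean was -0.50 ± 0.088 (SD, n = 4), a linear ratio of 0.708, with an unadjusted p of 0.00078 and an adjusted p of 0.110 in limma, the 32nd smallest of 4661 genes. With the ratio signs of replicates 3 and 4 turned, a possible dye swap, the mean was 0.0058. At day 14 eIF4B measured 0.028, -0.33 and 0.15 on replicates 1 to 3, on both sides of 0, with a mean of -0.051 ± 0.25 (SD, n = 3), and the lone column with a value at day 8 gave -0.13. As means over its spots, the lowest day 14 value was above the highest of day 10. Single spots overlapped, with -0.46 on day 14 replicate 2 and -0.27 on day 10 replicate 2. The difference of the days was 0.45 (SE 0.16), with an adjusted p of 0.641 in limma.

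eIF4G1 is the scaffold that joins the cap-binding protein, the helicase and eIF3. Its day 10 values were -0.36, -0.15, -0.33 and -0.38. It has 2 cDNA clones on the array, and both lay below 0 on all 4 arrays, the first at -0.18, -0.12, -0.37 and -0.33 and the second at -0.54, -0.17, -0.30 and -0.44. The mean was -0.31 ± 0.11 (SD, n = 4), a linear ratio of 0.809, with an adjusted p of 0.222 in limma. At day 14 it measured -0.11, 0.18, 0.037 and 0.046, a mean of 0.039 ± 0.12 (SD, n = 4), and at day 8 -0.095. As means over both clones the days did not overlap, with a difference of 0.35 (SE 0.13) and an adjusted p of 0.641 in limma. The first clone alone did overlap, at -0.23 on day 14 replicate 1 and -0.12 on day 10 replicate 2.

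eIF4A, the helicase itself, had values on both sides of 0 at day 10. It measured 0.12, -0.013, -0.13 and 0.093, a mean of 0.018 ± 0.11 (SD, n = 4). At day 14 its 3 arrays, at 0.048, 0.19 and 0.51, were all above 0, with a mean of 0.25 ± 0.23 (SD, n = 3) and an adjusted p of 0.752 in limma. The day 8 sample gave -0.062. pAbp, the poly(A)-binding protein that eIF4G contacts, measured -0.035, -0.14, -0.074 and -0.15 at day 10, all slightly below 0, with a mean of -0.098 ± 0.054 (SD, n = 4, adjusted p 0.763 in limma). Its day 14 values, -0.34, 0.37, -0.064 and 0.17, fell on both sides of 0, and its day 8 value was -0.42.

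The cap-binding proteins on the array are eIF4E3 and eIF4E5, both known for roles in the Drosophila male germ line. eIF4E5 measured 0.44, 0.31, 0.17 and 0.031 at day 10 and 0.75, 0.29 and 0.33 at day 14 (replicates 1 to 3). It was above 0 on all 7 arrays, and had no value at day 8. The day 14 mean, 0.46 ± 0.26 (SD, n = 3), a linear ratio of 1.37, was the highest of the members tested that day, with an unadjusted p of 0.00603 and an adjusted p of 0.630 in limma. The day 10 mean was 0.24 ± 0.18 (SD, n = 4), and as deposited, before the array median was set to 0, it was -0.011. eIF4E3 measured -0.14, -0.10, 0.26 and 0.79 at day 10, below 0 on replicates 1 and 2 and above on 3 and 4, and stayed between -0.035 and 0.13 at day 14. eIF4G2, an eIF4G variant needed for meiosis in males, measured -0.13, 0.41 and -0.17 on replicates 1, 3 and 4 of day 10, with no common sign. The testis markers with a value were betaTub85D, twe, S-Lap8, Mst87F and dj, and 2 or 3 of the 5 were measured per day 10 array. Their median was 0.43, 0.30, 1.19 and 0.51 on replicates 1 to 4, with single genes between -0.091 and 1.61, and at day 14 it was 0.36 on replicate 1 and 0.017 on replicate 3, where 3 and 1 of them had a value. The part of these testis signals in the eIF4E3, eIF4E5 and eIF3d2 values was not tested.

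eIF3 is the largest initiation complex, and 10 of its subunits had a value. At day 10 all 10 were tested, 5 above and 5 below 0, with a median of -0.020. eIF3i, a propeller-shaped subunit that sits with eIF3b and eIF3g on the mobile arm of the complex, measured 0.15, 0.30, 0.47 and 0.59. All 4 arrays were above 0, with a mean of 0.38 ± 0.19 (SD, n = 4), 1.30 on the linear scale, and limma gave an adjusted p of 0.225. At day 14 it measured -0.19, 0.30 and 0.079 on replicates 2 to 4, and at day 8 -0.21. Its partner eIF3b measured -0.069, -0.14, -0.034 and -0.14 at day 10, all below 0, with a mean of -0.096 ± 0.054 (SD, n = 4). The third, eIF3g1, measured 0.41, -0.44, 0.32 and 0.44, with replicate 2 alone below 0.

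eIF3d2, a paralog of the cap-contacting subunit eIF3d1, had the highest day 10 mean of the members tested. It measured 0.0005, 1.37 and 0.84 on replicates 1, 3 and 4, so the high values came from replicates 3 and 4, and that of replicate 1 is the mean of spots at 0.28 and -0.28. The mean was 0.74 ± 0.69 (SD, n = 3), with an adjusted p of 0.225 in limma. Without replicate 1 only replicates 3 and 4 were left, as replicate 2 had no value. They form 1 of the correlated pairs of arrays described below. Their mean was 1.10, and limma gave an adjusted p of 0.0251. In no other setting tried with array medians at 0 did a member pass. Without replicate 1, 134 of 5031 genes passed, beside 1 of 42 members. The adjusted p of eIF3d2 at day 10 was between 0.108 and 0.999 in the other settings. At day 14 it measured -0.035, -0.30 and 0.070, and the difference of the days was -0.82 (SE 0.31), adjusted p 0.641 in limma.

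eIF3a, the largest subunit, measured 0.41 and 0.13 on replicates 1 and 2 of day 10 and -0.40 and -0.73 on replicates 3 and 4. eIF3l measured 0.13, 0.26, -0.17 and -0.38, the same order of signs. The day 8 values of both were above 0, 0.18 and 0.21, and at day 14 eIF3a measured -0.12, 0.21 and -0.18 and eIF3l 0.10, -0.078 and -0.068. eIF3f1 measured -0.13, -0.62, 0.020 and -0.090 at day 10, -0.28, 0.27 and 0.21 on replicates 1, 3 and 4 of day 14, and -0.27 at day 8. eIF3k, a small peripheral subunit, measured -0.20, 0.059 and 0.15 on replicates 1, 3 and 4 of day 10, -0.16, -0.092 and 0.020 at day 14 and -0.015 at day 8. Neither kept a sign over the days. The remaining subunits, eIF3c and the paralog eIF3f2, were measured on 3 arrays at day 10, with means of -0.065 and 0.31. Spots of cDNA can take up signal of a close paralog, so values of eIF3d2, eIF3f1, eIF3f2, the eIF4E and eIF4G genes and eEF1alpha2 are uncertain in that respect.

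eIF2B reloads eIF2 with GTP and is the step that stress kinases block through phosphorylated eIF2. Of its subunits, eIF2Bbeta measured -0.25, -0.12, -0.18 and -0.54 at day 10, all below 0, with a mean of -0.27 ± 0.18 (SD, n = 4) and an adjusted p of 0.272 in limma. At day 14 it measured -0.12, 0.15, 0.054 and -0.073, all above the highest day 10 value but only just for replicate 1 (-0.115 against -0.119), and at day 8 -0.20. The difference of the days was 0.28 (SE 0.14), adjusted p 0.641 in limma. eIF2Bdelta was above 0 on 3 of 4 arrays at day 10, at 0.27, 0.20, -0.022 and 0.24, and measured -0.28, 0.15 and -0.13 at day 14 and 0.26 at day 8. eIF2Balpha measured -0.097, 0.14 and -0.025 on replicates 1 to 3 of day 10, -0.33, -0.12 and -0.060 at day 14 and -0.46 at day 8, so it was below 0 on all 3 day 14 arrays (mean -0.17 ± 0.14, SD, n = 3, adjusted p 0.808 in limma). The subunits thus shared no direction. eIF2Bgamma was measured on replicates 3 and 4 of day 10, at 0.32 and -0.13, and on replicates 1 and 3 of day 14, at -0.25 and -1.28. The last of these is the mean of spots at -2.16 and -0.41.

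Among the factors that handle the initiator tRNA, eIF2beta had a day 10 mean of -0.035 and a day 14 mean of 0.037, and eIF2A, a factor for alternative starts, -0.081 and 0.15. eIF2D, which also takes part in recycling, was measured on 3 arrays at -0.32, -0.34 and -0.47, and on each its spots disagreed (-0.84 and 0.21, -0.91 and 0.23, -0.80 and -0.14). The late factors eIF6 and eIF5B act when the large subunit joins. eIF6, which keeps the large subunit from joining too early, measured 0.097, 0.28, -0.040 and 0.63 at day 10 and 0.33, 0.21, 0.22 and 0.36 at day 14. All 4 day 14 arrays were above 0 and close together, a mean of 0.28 ± 0.079 (SD, n = 4), a linear ratio of 1.21, with an unadjusted p of 0.0318 and an adjusted p of 0.699 in limma. eIF5B, the GTPase of subunit joining, measured 0.30, 0.50 and 0.049 on replicates 1, 3 and 4 of day 10 (mean 0.28 ± 0.22, SD, n = 3, adjusted p 0.391 in limma) and -0.060, -0.059 and 0.28 at day 14.

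**Figure D2:**
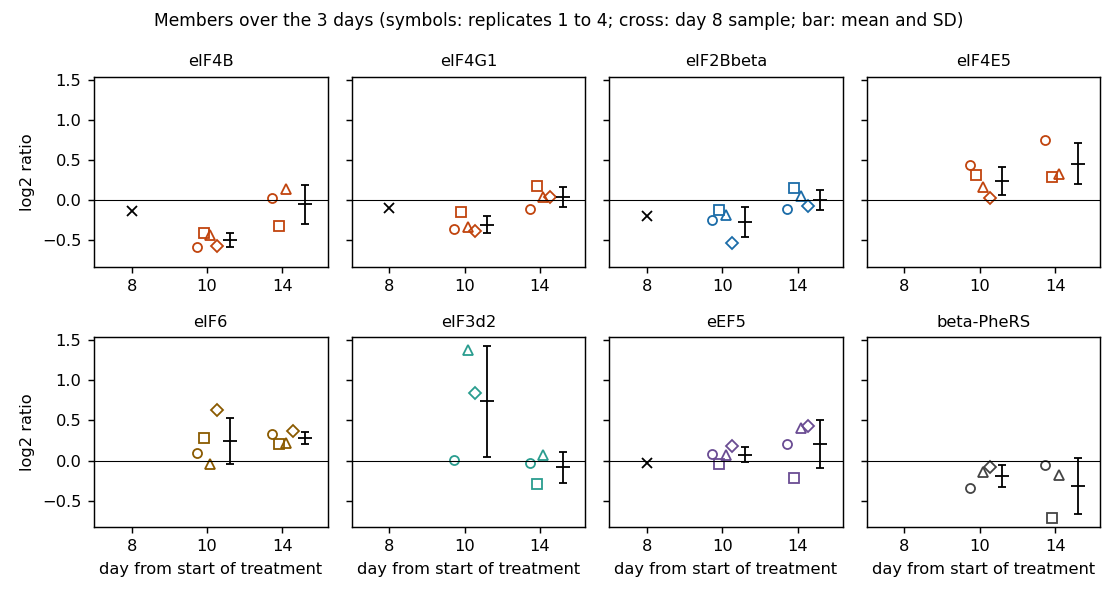
Log2 ratios (y axis) of 8 members by day from the start of treatment (x axis); open symbols are replicates 1 to 4, the cross is the day 8 sample and the black bar is the mean with its SD. Points are means over a gene's spots. eIF4B, eIF4G1 and eIF2Bbeta have every day 10 point below every day 14 point, though their single spots overlap. eIF4E5 is above 0 on all 7 arrays, and eIF3d2 has its high points on replicates 3 and 4 of day 10.

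Over the members tested on both days, 3 had day 14 values wholly above those of day 10 (eIF4B, eIF4G1 and eIF2Bbeta), 3 of 27, against a background of 4.99% of 2385 genes. None had day 14 values wholly below, against 4.07%. These values are means over a gene's spots, and single spots of each of the 3 overlapped between the days. The same 3 belong to the 6 members that were below 0 on every array at day 10 (eIF4B, eIF4G1, eIF2Bbeta, eIF3b, pAbp and beta-PheRS), and 7 were above 0 on every array. Together these were 33.3% of the members tested, against 25.3% of all genes. These signs are those of the mean over a gene's spots: every single spot had the sign for 2 of the 6 (eIF4B and eIF4G1) and 1 of the 7 (eIF3i). At day 14 the same sign on every array was seen for 6 members above 0 and 2 below, 25.8% against 27.2% of all genes, and by single spots for 4 (eEF1alpha2, eIF4A, eIF4E5 and eIF6) and 1 (eIF2Balpha).

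**Figure D3:**
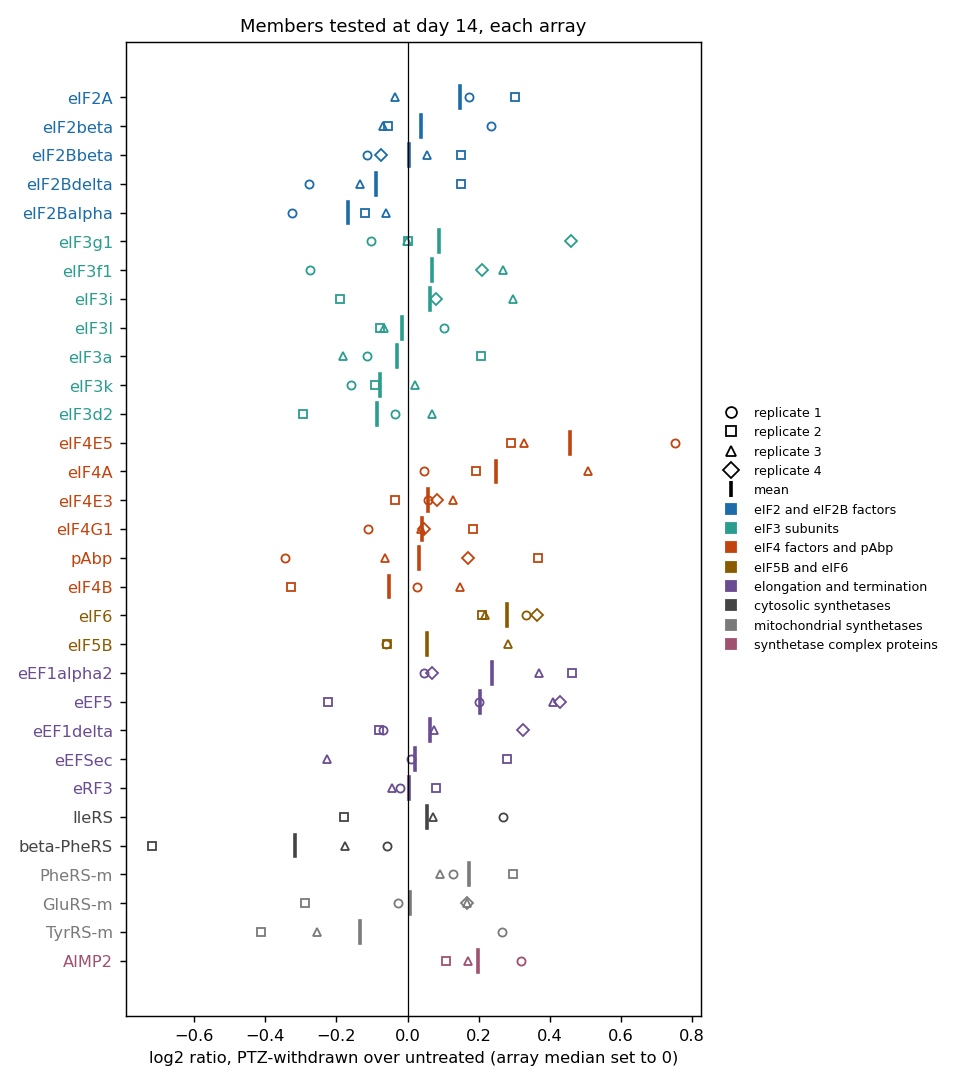
Log2 ratios of the 31 members tested at day 14 (x axis, array median at 0), 1 row per member, with symbols for replicates, a thick bar for the mean and colours for roles. The means run from -0.32 (beta-PheRS) to 0.46 (eIF4E5). All 5 elongation and termination factors have a mean above 0, beside 52.1% of all genes.

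Of the elongation factors, eEF1alpha2, a form of the GTPase that brings aminoacyl-tRNA to the ribosome, had no value at day 10. At day 14 it measured 0.045, 0.46, 0.37 and 0.070, all above 0, with a mean of 0.24 ± 0.21 (SD, n = 4) and an adjusted p of 0.752 in limma, and at day 8 0.14. eEF5, also called eIF5A, the hypusine-carrying factor that eases difficult peptide bonds, measured 0.081, -0.042, 0.066 and 0.18 at day 10, 0.20, -0.22, 0.41 and 0.43 at day 14 and -0.028 at day 8. Replicate 2 was the low array on both days. Its day 14 mean was 0.20 ± 0.30 (SD, n = 4, adjusted p 0.764 in limma). eEF1delta, an exchange factor of eEF1alpha, measured -0.058, 0.0045, -0.41 and 0.098 at day 10, -0.069, -0.081, 0.074 and 0.32 at day 14 and -0.10 at day 8, on both sides of 0 on both days.

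eEFSec, which delivers selenocysteine, measured 0.17, 0.32, -0.26 and -0.33 at day 10 and 0.0085, 0.28 and -0.23 at day 14. eRF3, the GTPase of termination, measured 0.22, -0.028, -0.17 and -0.67 at day 10, -0.022, 0.081 and -0.045 at day 14 and 0.22 at day 8. For both the day 10 SD was larger than the size of the mean, -0.022 ± 0.32 and -0.16 ± 0.38 (SD, n = 4 each). By counts, 1 of 4 elongation and termination factors had a day 10 mean above 0, beside 53.1% of all genes. At day 14 the count was 5 of 5, from 0.0045 to 0.24, beside 52.1% of all genes. None had an unadjusted p under 0.05 at either day in limma. With the signs of replicates 3 and 4 turned, the counts were 3 of 4 and 3 of 5. With that day's replicates 1 to 4 left out in turn, they were 1, 1, 3 and 3 of 4 at day 10. At day 14 they were 5, 3, 5 and 4 of 5.

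Phenylalanyl-tRNA synthetase is built of alpha and beta chains, and the cytosolic pair was measured. alpha-PheRS gave 0.080, 0.66 and 0.56 on replicates 1, 3 and 4 of day 10, all above 0 (mean 0.43 ± 0.31, SD, n = 3, adjusted p 0.400 in limma). beta-PheRS gave -0.34, -0.14 and -0.081 on the same arrays, all below 0 as means of its spots (mean -0.19 ± 0.14, SD, n = 3, adjusted p 0.616 in limma). The spot means of the 2 chains did not overlap at day 10, but single spots did: beta-PheRS had spots at -0.54 and 0.25 on replicate 3 and at -0.39 and 0.23 on replicate 4, and alpha-PheRS at -0.11 and 0.27 on replicate 1. The difference between the chains was not tested. At day 14 alpha-PheRS had 0.086 and -0.92 on replicates 1 and 3 (the latter from spots at -0.33 and -1.51), and beta-PheRS -0.058, -0.72 and -0.18 on replicates 1 to 3, a mean of -0.32 ± 0.35 (SD, n = 3, adjusted p 0.752 in limma). The single day 8 column that held alpha-PheRS gave -1.17.

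Of the other cytosolic enzymes, ThrRS measured -0.40, -0.35 and 0.15 on replicates 1 to 3 of day 10, and SerRS and AlaRS had day 10 means of 0.075 and 0.14. The clones of AlaRS disagreed on replicate 3, at 1.03 and -0.094. IleRS had a day 14 mean of 0.054. The multi-synthetase complex holds several cytosolic synthetases together through AIMP proteins. AIMP1 measured 0.16, 0.13, -0.11 and -0.11 at day 10, 0.20 and -0.085 on replicates 1 and 3 of day 14 and 0.028 at day 8. AIMP2 had 0.89 and 0.47 on replicates 3 and 4 of day 10, the second from spots at 0.93 and 0.013, where the other arrays of that day had no value, and measured 0.32, 0.11 and 0.17 at day 14, all above 0 (mean 0.20 ± 0.11, SD, n = 3, adjusted p 0.808 in limma).

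The mitochondrial synthetases charge the tRNAs that the organelle uses to make its respiratory chain proteins. TyrRS-m measured 0.24, 0.086 and 0.24 on replicates 1 to 3 of day 10 (mean 0.19 ± 0.089, SD, n = 3, adjusted p 0.610 in limma), 0.27, -0.41 and -0.26 at day 14, and -2.98 at day 8, by far the lowest member value there. As deposited, the day 10 mean was -0.040. The day 8 value comes from 1 of its 2 clones, with spots at -2.17 and -3.79, in 2 of the 4 columns, and the same clone gave between -0.41 and 0.24 on the arrays of the later days. It alone gave the values of day 10 replicate 3 and day 14 replicates 2 and 3. The other clone gave 0.24 and 0.17 on replicates 1 and 2 of day 10 and 0.41 on day 14 replicate 1. The TyrRS-m values of the 2 days thus rest on different clones in part. GluRS-m, the lone member with a value in all 4 columns of day 8 (0.084), measured 0.21, -0.12, 0.11 and 0.0050 at day 10 and -0.026, -0.29, 0.17 and 0.17 at day 14. PheRS-m measured 0.29 and 0.28 on replicates 3 and 4 of day 10 and 0.13, 0.30 and 0.091 at day 14, above 0 on all 5 arrays, with a day 14 mean of 0.17 ± 0.11 (SD, n = 3, adjusted p 0.808 in limma). TrpRS-m measured -0.18, -0.14, 0.37 and 0.77 at day 10. ArgRS-m had 0.38 on 1 array of day 10, 0.064 and 0.033 on 2 of day 14 and 0.17 at day 8. CysRS-m and AsnRS-m had values on replicates 1 and 3 of day 10 alone that day, -0.56 and 0.43 for the first and -0.13 and 0.55 for the second, whose 0.55 is the mean of spots at -0.12 and 1.22, and ValRS-m had a day 10 mean of -0.025.

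At day 8 the values describe 1 sample. Of the members, 21 had a value in at least 1 column, 8 of them in at least 3, and 13 of the 21 were below 0. The median of the 21 was -0.0625, against 0.004 for the 2132 genes with a value. The 8 members with at least 3 columns had a median of -0.045, against 0.031 for 519 genes, and none was past 1 in either direction, where the background was 3.08% (0.578% at 1 or more and 2.5% at -1 or less). With a single column accepted, TyrRS-m and alpha-PheRS were past 1, 2 of 21 members, against 4.27% of 2132 genes, and the other 19 lay within 0.5 of 0. The initiation factors among the 8 (pAbp, eIF3f1, eIF4A and eIF3k) were below 0, from -0.42 to -0.015, as were 233 of the 519 genes. Of the initiation factors with fewer columns, eIF2Bdelta (0.26), eIF3a (0.18) and eIF3l (0.21) were above 0 and the rest below.

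The day 10 arrays fell into 2 pairs, and the members shared in this. Over the members, replicates 1 and 2 correlated at r = 0.46 (n = 31) and replicates 3 and 4 at r = 0.64 (n = 37), while the other pairs of arrays gave -0.096 to 0.11. Over all genes the same values were 0.50, 0.55 and -0.071 to 0.029. These are correlations across genes, which share array and labelling. What separates the pairs is not named in the labels. Of 26 members measured on all 4 arrays, 4 were above 0 on replicates 1 and 2 and below on 3 and 4 (AIMP1, eEFSec, eIF3a and eIF3l), against 17.8% of 3317 genes, and 4 the reverse (SerRS, TrpRS-m, eIF4E3 and eIF4H2, a relative of eIF4B), against 10.6%. All 4 arrays were above 0 for 2 (eIF3i and eIF4E5), against 10.7%, and below 0 for 5 (eIF2Bbeta, eIF3b, eIF4B, eIF4G1 and pAbp), against 12.4%. The shares of the members were 15.4%, 15.4%, 7.69% and 19.2%.

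Within the pairs, eIF4B had means of -0.49 and -0.50 and eIF4G1 -0.25 and -0.36, below 0 in both pairs and nearly equal for eIF4B. eIF2Bbeta had -0.19 and -0.36. eIF3i had 0.22 and 0.53. The means of eIF3a were 0.27 and -0.57, of eEFSec 0.25 and -0.29, of TrpRS-m -0.16 and 0.57 and of eIF4E3 -0.12 and 0.52, opposite in sign. eIF3d2 had 0.0005 on 1 array of the first pair and 1.10 over both of the second.

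**Figure D4:**
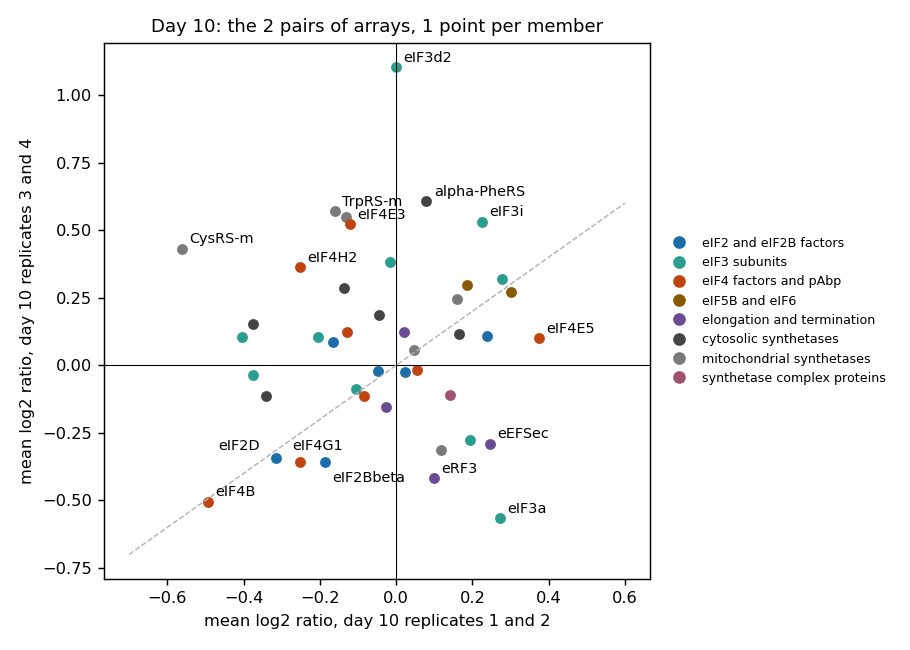
Each point is a member with a value in both pairs of day 10 arrays: its mean log2 ratio on replicates 1 and 2 (x axis) against that on replicates 3 and 4 (y axis), coloured by role, with equal values on the dashed line. eIF4B lies near the line at -0.49 and -0.50, while eIF3a, eEFSec, TrpRS-m, eIF4E3 and CysRS-m lie in the quadrants of opposite sign.

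By array, the median of the initiation factors ran from -0.11 to 0.071 at day 10 and from -0.11 to 0.082 at day 14. That of the synthetases was -0.011 and 0.086 on replicates 1 and 2 of day 10 and 0.29 and 0.24 on replicates 3 and 4, so it was high in the second pair only. Elongation and termination factors had the reverse order, 0.13, -0.012, -0.21 and -0.11. The synthetase medians of day 10 rest on 13, 9, 15 and 9 members, not the same ones on each array. Of those on all 4 arrays, SerRS (-0.136 and 0.285) and TrpRS-m (-0.161 and 0.57) had higher means in the second pair. AIMP1 (0.142 and -0.109) and AlaRS (0.164 and 0.115) had lower ones, and GluRS-m nearly equal ones (0.046 and 0.057). At day 14 the synthetases spread from -0.23 to 0.17, the last being the value of GluRS-m alone on replicate 4, where 13 members in all were measured.

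**Figure D5:**
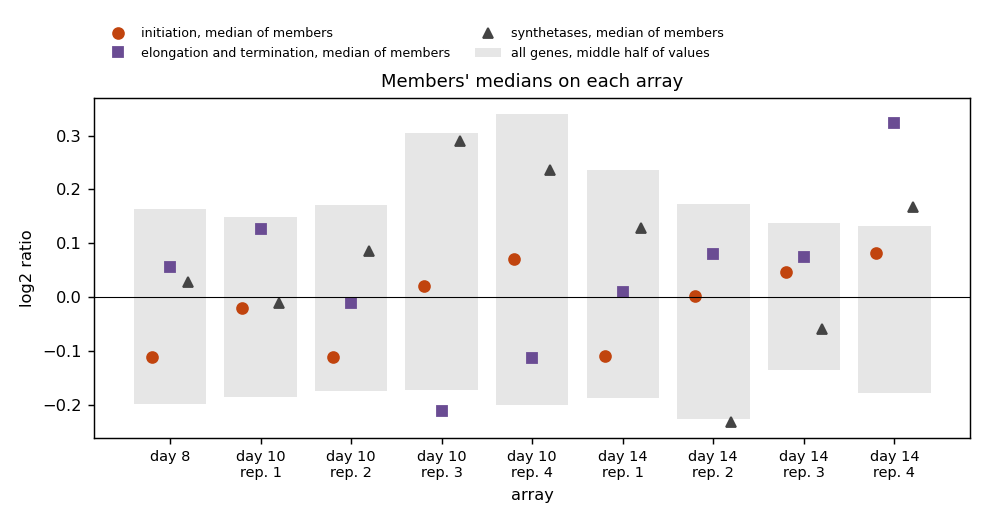
Median log2 ratio (y axis) of the initiation, elongation and termination, and synthetase members on each array (x axis), over grey bars that span the 25th to the 75th percentile of all genes. On day 10 replicate 3 the synthetases sit near the top of the bar, at 0.29, and the elongation and termination factors below it, at -0.21; medians also fall outside the bar on day 14 replicates 2 and 4.

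Genes that govern or accompany translation gave no call either. Of 24 TOR and stress kinase genes listed, 14 had a value and 12 were tested at day 10, 3 above 0 and 9 below with a median of -0.045; the smallest p was that of Nprl3, part of a brake on TOR, at 0.54 (SE 0.17, adjusted p 0.246 in limma). At day 14, 7 were tested, 4 above and 3 below 0, with foxo, a transcription factor of fasting, at -0.26 (SE 0.12, adjusted p 0.752 in limma). Of 22 regulators bound to mRNA, 9 were tested at day 10, 2 above and 7 below 0, median -0.13, with Syp at -0.19 (adjusted p 0.467 in limma), and 7 at day 14, 2 above and 5 below, with orb2, a regulator of translation at synapses, at 0.19 (adjusted p 0.752 in limma). Mitochondrial translation factors had 2 of 5 above 0 at day 10, with mEFTu2 at 0.47 (adjusted p 0.234 in limma), and 2 of 3 at day 14. The list of ribosome rescue and release genes had 2 of 3 above 0 at day 10, Rack1 at 0.0335 and MCTS1 at 0.062. The other, pelo, was below 0 at -0.35 (adjusted p 0.233 in limma). At day 14, 1 of 4 genes of that list was above 0. Among the marker lists, testis genes had 3 of 3 above 0 at day 10, fat body 6 of 8, photoreceptors 3 of 5, neurons 1 of 3, glia 0 of 3 and muscle 2 of 3, and the female germ line and blood cells 1 of 1 each. The smallest p among the neuron genes that day was that of Rab3, a synaptic vesicle protein, at -0.67 (SE 0.16, adjusted p 0.139 in limma). Of the other neuron genes, nSyb was above 0 at 0.17 and Gad1 below at -0.21. Among the testis genes, twe had the smallest p, at 0.62 (SE 0.13, adjusted p 0.139 in limma). At day 14 the counts above 0 were 1 of 5 for fat body, 4 of 4 for photoreceptors, 2 of 3 for neurons, 1 of 2 for glia, 3 of 4 for muscle and 1 of 1 for blood cells, with no testis or female germ line gene tested. None passed the adjusted threshold on either day.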

How the data were processed

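The values are log2 ratios deposited by the authors, 1 per spot and array. The series text names GenePix Pro 6.0 for quantification and Acuity 4.0 for ratio normalization, followed by spot filters (under 3% saturated pixels, R2 of at least 0.6, signal to noise of at least 3) before SAM 2.21. Base 2 was assumed for the logarithm, which no source used here states. By the platform table, 15116 of 27648 spots name a lone gene, 102 several (left out) and 12430 are unnamed here; symbols were updated through RefSeq. Array medians were set to 0 and spots averaged per gene. limma 3.58.1 (R 4.3.3, lmFit and eBayes) fitted a mean per day to 9 samples (4 identical day 8 columns as 1) and 5291 genes, tested on a simulated set first. A gene needed values on 3 of 4 arrays, or on 2 on a day with an array left out. The p-values were Benjamini-Hochberg adjusted over all genes tested. The replicates are biological per the labels. Precision is limited by the number of arrays; spot intensities were not analysed here. Deviations of same-numbered arrays of days 10 and 14 correlated at -0.078 to 0.28 and those of differently numbered ones at -0.25 to 0.29, so the numbers were not taken as pairs.

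Members and lists (pathway and cell markers) were chosen with earlier results of these data known. Values on every array are given for the 4 members with the smallest p per role and day, the 2 in the difference, those with a day 8 value and a list of fixed names; other members were named after their values were seen.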

Additional observations from a re-analysis of the deposited data

Results flagged for a closer look

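Over 44 groups of 4 arrays (36 of single members and 8 of members' medians), 1 held a value far from the other three. eIF3g1, a subunit on the mobile arm of eIF3, was at -0.443 on day 10 replicate 2, while replicates 1, 3 and 4 were at 0.41, 0.32 and 0.44, and both of its spots were low there (-0.54 and -0.35). Chance marks about 1 in 20 such groups. Replicate 1, its neighbour in the pair of arrays that correlated at r = 0.46 over the members, was not low. Those 2 arrays had the same sign for 23 of 31 members.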

How the results depend on the processing

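No member passed the adjusted threshold in limma at day 10, day 14 or between them with spots summarised by their median, with discordant spots left out, with 2 or 4 of 4 arrays required, or with ratio signs turned. Without the centring, the median of all genes was -0.23 at day 10 and 1.17 at day 14. As deposited, 31 of 31 members passed at day 14, beside 3001 of 3010 genes. In the difference 26 of 27 members passed, beside 2352 of 2385 genes. Member medians were -0.23 (day 10), 1.19 (day 14) and 1.45 (difference). The sign changed for 17 of 39 members at day 10, 9 of 31 at day 14 and 11 of 27 in the difference. Of the named members with the same sign on every array, it changed for TyrRS-m (-0.040) and eIF4E5 (-0.011) at day 10 and beta-PheRS (0.92) and eIF2Balpha (1.07) at day 14. Leaving out an array in turn gave 0 to 1 members called at day 10 (eIF3d2, without replicate 1), 0 to 0 at day 14 and in the difference, and medians of 0.016 to 0.085, 0.0045 to 0.058 and -0.017 to 0.077. Without day 10 replicate 1, limma called 1 of 42 members and 134 of 5031 genes at day 10. The call of eIF3d2 then rested on replicates 3 and 4. The day 8 count past 1 was 2 in place of 0 with 1 column accepted, and limma, with the spread of the later days lent to the lone sample, called 0 of 8 members and 20 of 519 genes. The direction rests on the dyes: with day 10 replicates 1 to 3 turned, the sign changed for 25 of 39 members at day 10 and 11 of 27 in the difference; among them, day 10 means became -0.19 (TyrRS-m), -0.059 (alpha-PheRS), 0.14 (beta-PheRS), 0.0036 (eIF2Bbeta), -0.18 (eIF3d2), -0.081 (eIF3i), 0.21 (eIF4B), -0.22 (eIF4E5), 0.11 (eIF4G1) and 0.024 (pAbp), and differences -0.26 (eIF4B) and -0.075 (eIF4G1). With replicates 3 and 4 turned it changed for 25 of 39, 16 of 31 and 17 of 27; among these, day 10 means became 0.42 (eIF3a), 0.26 (eRF3), -0.38 (alpha-PheRS), 0.087 (eIF2Bbeta), -0.74 (eIF3d2), -0.15 (eIF3i), 0.0058 (eIF4B), 0.053 (eIF4G1) and 0.014 (pAbp), day 14 means -0.22 (eEF5), -0.25 (eIF3f1), -0.19 (eIF3i), -0.089 (eIF4A) and -0.0093 (eIF6), and differences -0.074 (eIF2Bbeta), -0.15 (eIF4B) and -0.055 (eIF4G1). With the replicate block, 0 of 27 members were called and the median difference was 0.0028, against 1 gene of 2385. A term for the 2 pairs of day 10 arrays, chosen after seeing the data, called 40 genes and 0 of 39 members, eIF4B having an adjusted p of 0.0614. Across all settings the adjusted p of eIF4B at day 10 was between 0.0614 and 0.999.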
